A study of Mus musculus with 16 samples.

Results

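Chosen by name, 9 genes known from cytotoxic T cells and natural killer cells were followed. They are the granzymes *Gzma*, *Gzmb*, *Gzmc* and *Gzmk*, the pore protein *Prf1*, the granule membrane protein *Nkg7*, and the receptors *Klrd1*, *Klrk1* and *Ncr1*. All 9 of the 9 names were found among the 5171 distinct genes that the deposited tables of the series hold. RNA had been sequenced from whole colon of C57BL/6 males, and the study asked how loss of Smarcad1, a chromatin remodelling factor, from the intestinal epithelium alters the response to dextran sodium sulphate (DSS), a polymer that injures the colon lining. The 16 libraries were 3 from wild type (WT) control mice, 3 from knockout (KO) control mice, 5 from WT mice with colitis and 5 from KO mice with colitis. In the colitis groups 1% DSS had been given in the drinking water, with harvest after 15 days, and the control mice had none. All 4 groups had an enriched microbiota from donor mice of a second facility, begun 2 weeks before DSS. The KO mice carried a *Smarcad1* gene with loxP sites, cut by Cre recombinase under the villin promoter (*Vil-cre*), which acts in the intestinal epithelium, and they descended from 1 targeted embryonic stem cell clone. Lymphocytes are not a target of this Cre. The labels give no age.

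Cytotoxic lymphocytes kill a bound cell by releasing granules. Perforin, made from *Prf1*, lets the serine proteases called granzymes into the target, where granzyme B starts programmed cell death. Receptors of the natural killer gene families decide whether release occurs. In the colon, such cells sit within the epithelium and in the tissue under it, and their number is known to grow in inflammation.

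All 9 genes are protein coding, and the tables place them exactly where GENCODE does on the mouse build used, GRCm38. *Gzma* (chr13:113093825-113100981, minus strand) and *Gzmk* (chr13:113171608-113225908, minus strand) are neighbours. *Gzmb* (chr14:56258838-56262260, minus strand) and *Gzmc* (chr14:56231441-56234656, minus strand) lie in another cluster. *Klrd1* (chr6:129591782-129598775, plus strand) and *Klrk1* (chr6:129610323-129623864, minus strand) lie in the natural killer gene complex. *Prf1* is at chr10:61297833-61304680, *Nkg7* at chr7:43437073-43438249 and *Ncr1* at chr7:4337724-4345164, all 3 on the plus strand.

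The 250 bases before the RefSeq start site (build GRCm38.p6) are shown for *Gzma* (chr13:113100982-113101231, minus strand), *Gzmb* (chr14:56262335-56262584, minus strand) and *Prf1* (chr10:61297586-61297835, plus strand), the granzymes with the highest levels in colitis and the pore protein that works with them. Capitals mark matches, on either strand, to the Runx core TGTGGT, the T-box core GGTGTG, the CRE-like TGACGT or the AP-1 motif TGANTCA.
Gzma: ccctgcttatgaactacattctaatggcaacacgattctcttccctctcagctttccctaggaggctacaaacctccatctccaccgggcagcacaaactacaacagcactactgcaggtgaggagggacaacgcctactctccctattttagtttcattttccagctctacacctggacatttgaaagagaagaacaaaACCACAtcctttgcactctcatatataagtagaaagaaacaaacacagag
Gzmb: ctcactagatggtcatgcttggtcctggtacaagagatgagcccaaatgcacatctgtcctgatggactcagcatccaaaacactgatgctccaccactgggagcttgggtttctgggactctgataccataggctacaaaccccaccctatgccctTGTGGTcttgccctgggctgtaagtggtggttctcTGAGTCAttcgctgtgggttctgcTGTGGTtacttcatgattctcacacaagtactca
Prf1: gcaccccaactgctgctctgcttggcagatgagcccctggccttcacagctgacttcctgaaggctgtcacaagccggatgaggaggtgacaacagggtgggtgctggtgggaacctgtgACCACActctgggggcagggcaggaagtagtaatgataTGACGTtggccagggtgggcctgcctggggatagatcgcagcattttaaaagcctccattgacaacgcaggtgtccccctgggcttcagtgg
Runx3 and the T-box factor T-bet are known regulators of the cytotoxic programme, and AP-1 and CREB act downstream of receptor signals. A promoter entry was found for 8 of the 9 genes; *Klrd1* had none. The Runx core was in 7 of these 8 windows and in 15.9% of all 27025 genes with such a window. The T-box core was in 2 of 8 and in 18.3% of all, the CRE-like motif in 2 of 8 and in 7.29% of all, and the AP-1 motif in 1 of 8 and in 7.82% of all. The window of *Gzmb* held 2 matches to the Runx core and 1 to the AP-1 motif, that of *Gzma* 1 match to the Runx core, and that of *Prf1* 1 to the Runx core and 1 to the CRE-like motif. These are matches of letters and not measured binding sites.

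The deposited values are the authors' means over the libraries of a group of log2 reads per 1000000 reads of a library (RPM), so the values carry no SD and no test over mice was run. Counts by library, which the study lists in its supplement, were not used here. A gene is said below to have risen or fallen only where it is in the deposited table of that comparison, which holds the genes under an adjusted p of 0.05 in the authors' DESeq2 test. Since every gene at hand had passed at least 1 of those tests, each of the 9 genes had to differ somewhere. The spacing of the lowest means gave the depth, with geometric means between 8000000 (WT colitis) and 10110000 (WT control) reads per library. A mean of 3 reads per library served as the floor and lies between -1.75 and -1.42 log2 RPM. *Smarcad1* itself had authors' means of 5.77 and 4.59 log2 RPM in WT and KO controls and of 5.68 and 4.55 in WT and KO mice with colitis, a KO minus WT difference of -1.18 in control and -1.13 in colitis. The epithelial gene *Slc26a3*, a chloride exchanger of the colon surface, stood at 11.07 log2 RPM in WT control colon.

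In control colon 5 of the 9 genes were at or under 3 reads per library in either genotype, and in colitis all 9 were above it. The margin in colitis was small for *Gzmk* (3.85 reads in WT), *Gzmc* (5.58 in KO) and *Ncr1* (5.70 in WT and 6.79 in KO), and *Klrk1* and *Klrd1* already had 9.52 to 15.6 reads in control. In WT mice 7 of the 9 rose, where 36.6% of all genes in the tables rose, and in KO mice 8 of the 9 rose, where 44.8% did. Of these, 6 rose in both. *Gzma* and *Ncr1* are not in the WT table and *Gzmc* is not in the KO table, which does not show that the genotypes differ. By size alone, all 9 were higher in colitis by at least 1 on the log2 scale in WT (18.4% of all genes) and all 9 in KO (16% of all genes). With means at or under 3 reads raised to 3 reads, 8 of the 9 were in WT and 8 in KO. *Gzmk* then had a difference of 0.70 in WT and *Gzmc* 0.88 in KO. The share of all genes was not counted that way. None of the 9 passed a test of KO against WT, so each was listed through a colitis comparison. A gene at or under 3 reads in control could hardly pass that comparison except by being higher. The counts above and the medians below were thus partly fixed in advance, and no excess over all genes is read from them. The median difference over the 9 genes was 2.61 in WT and 2.57 in KO, beside 0.13 and 0.19 over all genes. The median level of all genes itself shifted by 0.12 from control to colitis in WT and by 0.07 in KO, and relative to that shift the medians of the 9 genes were 2.49 and 2.50. In bulk tissue, fewer cells of a type and less RNA per cell cannot be told apart, so these values do not separate more lymphocytes from more transcript in each.

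**Figure D1:**
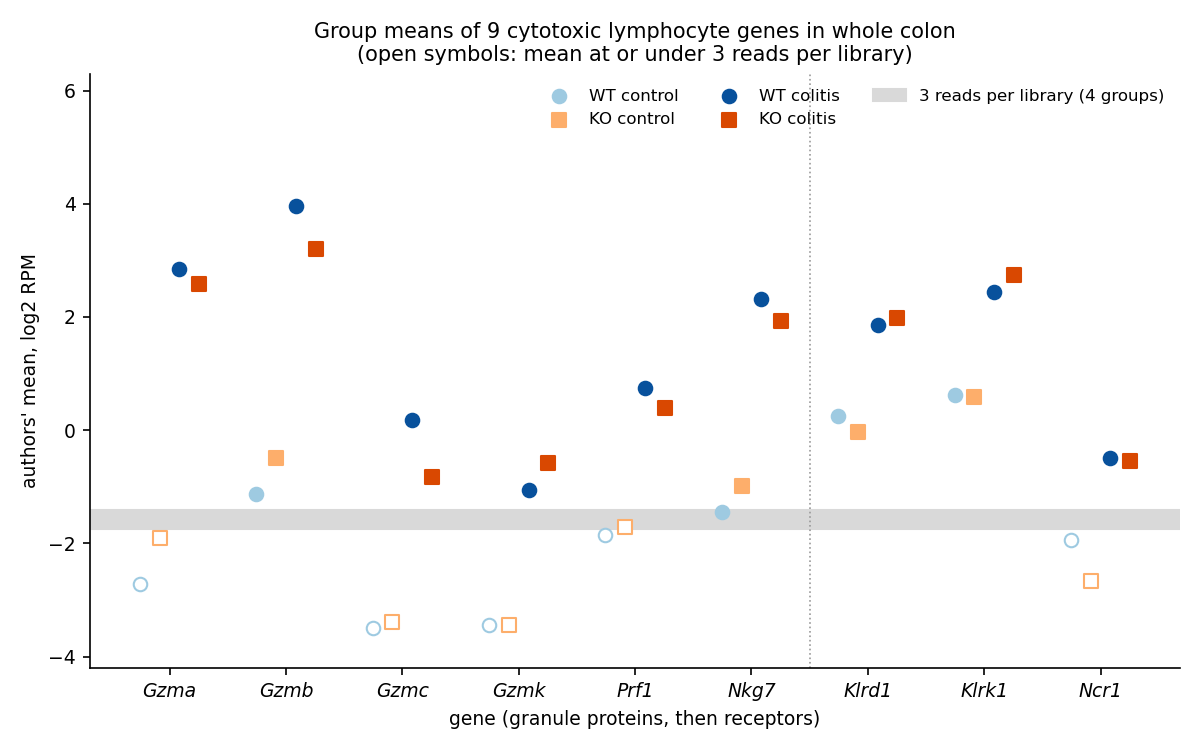
Authors' group means (log2 RPM, vertical axis) of the 9 genes for each genotype without and with colitis; open symbols are means at or under 3 reads per library, and the grey band is the range of that floor over the 4 groups. In control 5 of 9 genes are at or under the floor in either genotype, and all 9 colitis means of either genotype lie above it.

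*Gzmb*, the granzyme that cleaves caspases, had the highest level of the 9 per kilobase of exon in colitis. Its means were -1.13 (WT) and -0.50 (KO) log2 RPM without DSS, and 3.97 (WT) and 3.21 (KO) with colitis, or 4.61, 6.91, 125 and 91.2 reads per library. It rose 34.3-fold in WT and 13.1-fold in KO mice. The difference between colitis and control was thus 5.10 in WT and 3.71 in KO on the log2 scale, and the gap of -1.39 between these was the largest of the 9 genes. Both parts of the gap point the same way, since KO minus WT was 0.63 in control and -0.76 in colitis. The control part rests on few reads: the means of 4.61 (WT) and 6.91 (KO) do not fix each library. They allow up to 98 reads in a single WT control library and up to 330 in a KO one, so the control difference and the folds are uncertain.

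*Gzma*, the most abundant tryptase of these granules, had means of -2.72 (WT) and -1.90 (KO) log2 RPM in controls, against 2.84 (WT) and 2.59 (KO) in colitis. In reads per library these are 1.53, 2.62, 57.4 and 59.3. Both control means lie under the floor, so the folds are lower bounds against 3 reads: at least 24.2-fold higher for WT mice and at least 19.6-fold for KO mice, of which only the KO comparison is in a deposited table. With the authors' means as given, the differences were 5.57 and 4.49. With control raised to 3 reads they were 4.596 and 4.29, and the gap between genotypes shrank from -1.08 to -0.30.

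*Gzmc*, a granzyme of strongly stimulated killer cells, was at no read in any of the 3 WT control libraries. Its authors' means were -3.49 (WT) and -3.39 (KO) log2 RPM in controls, against 0.17 (WT) and -0.82 (KO) in colitis. The WT rise was at least 3.80-fold. In KO mice, where it is not in the table, the level was at least 1.84-fold higher. Its colitis means stand for 9.02 reads in WT and 5.58 in KO. *Gzmk*, the granzyme of memory-like CD8 T cells, was at no read in any of the 3 KO control libraries. Its means were -3.44, -3.44, -1.06 and -0.58 log2 RPM in the same order, with rises of at least 1.62-fold (WT) and 2.18-fold (KO). It was the only one of the 4 granzymes with a higher mean in KO than in WT colitis, at 6.62 against 3.85 reads per library.

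*Prf1* had means of -1.86 (WT) and -1.70 (KO) log2 RPM in controls, against 0.75 (WT) and 0.39 (KO) in colitis. Its rise was at least 5.67-fold for WT and 4.28-fold for KO mice. *Nkg7*, which is needed for granules to fuse with the cell membrane, had means of -1.44, -0.99, 2.31 and 1.93 log2 RPM. It rose 13.5-fold in WT and 7.54-fold in KO, with all 4 means above the floor. A control mean near the floor does not fix each library: for *Prf1* in WT control the mean of 2.79 reads allows sets of 3 libraries with up to 24 reads in one of them.

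Of the receptors, *Klrd1* and *Klrk1* were above the floor in all 4 groups. *Klrd1* encodes CD94, the partner chain of the NKG2 receptors. Its means were 0.25 (WT) and -0.04 (KO) log2 RPM in controls and 1.86 (WT) and 1.99 (KO) in colitis, a rise of 3.05-fold in WT and 4.07-fold in KO. *Klrk1* encodes NKG2D, an activating receptor for stress-induced ligands. Its means were 0.62, 0.59, 2.45 and 2.74 log2 RPM, a rise of 3.55-fold in WT and 4.46-fold in KO. *Ncr1* encodes NKp46, which marks natural killer cells and a part of the innate lymphoid cells. Its means were -1.95, -2.67, -0.49 and -0.54 log2 RPM, at least 2.40-fold (WT) and 2.24-fold (KO) above control, and only the latter is in a table. The median difference over the 3 receptors was 1.61 in WT and 2.13 in KO, and over the 6 granule proteins it was 3.71 in WT and 2.89 in KO. With means at or under 3 reads raised to the floor, the receptors gave 1.61 and 2.03 and the granule proteins 3.13 and 2.51.

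**Figure D2:**
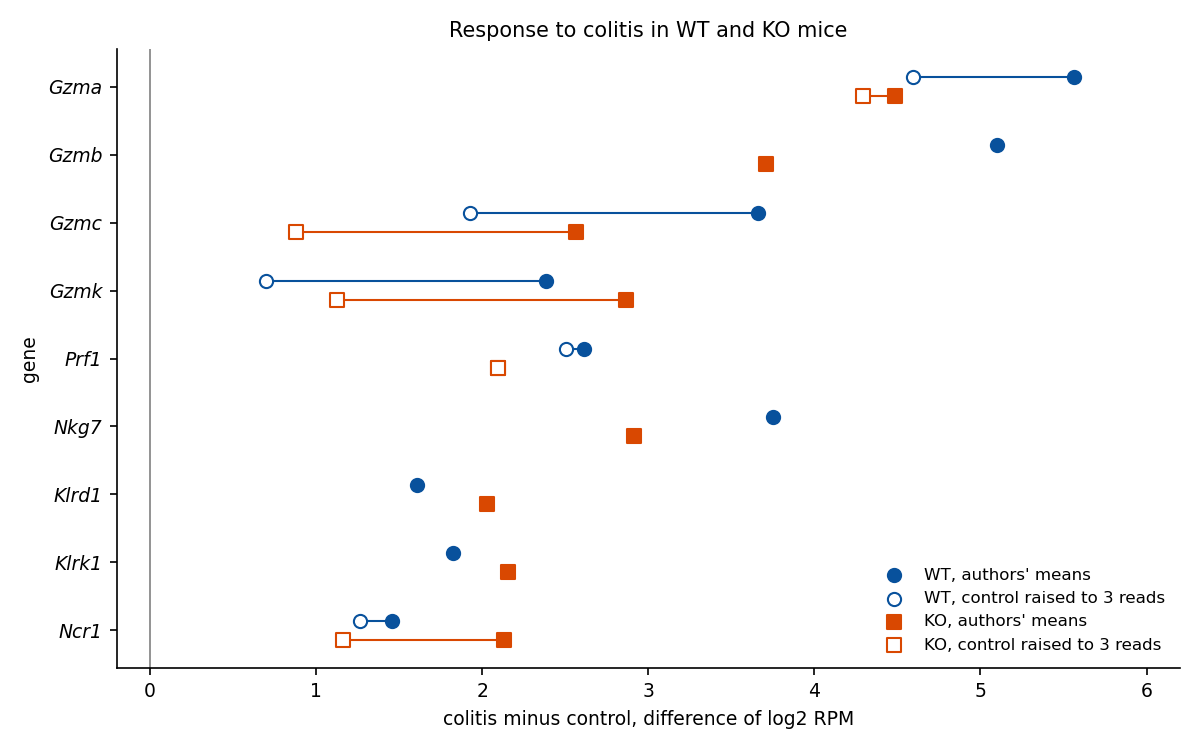
Colitis minus control (difference of log2 RPM, horizontal axis) for each gene in WT (circles) and KO (squares); filled symbols use the authors' means, and open symbols use control means raised to 3 reads per library where they lie at or under it. *Gzmb* and *Nkg7* have no open symbol and lie farther right in WT, at 5.10 and 3.75, than in KO, at 3.71 and 2.91; *Klrd1* and *Klrk1* lie farther right in KO.

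Between genotypes, none of the 9 genes is in the deposited table of KO against WT in colitis, which holds 1.08% of all genes, or in that of KO against WT in control, which holds 0.89%. In colitis the KO mean of the granule proteins was lower for 5 of 6, where it was lower for 2722 of all 5171 genes. The KO minus WT difference was -0.99 for *Gzmc*, -0.76 for *Gzmb*, -0.38 for *Nkg7*, -0.35 for *Prf1* and -0.25 for *Gzma*, and it was 0.48 for *Gzmk*. As percentages of the WT colitis level these are 50.2, 59.1, 76.7, 78.2, 83.9 and 139.6. The receptors were at 122.9% for *Klrk1*, 109.7% for *Klrd1* and 96.7% for *Ncr1*, the last a difference of -0.05 that changed sign, to 0.003, when each group was centred on the median of all genes. Lower by at least 0.5 on the log2 scale were 2 of the 9, *Gzmb* and *Gzmc*, beside 10.3% of all genes. The median over the 9 genes was -0.25, beside -0.01 over all genes. In control the 4 genes with all means above the floor differed by 0.63 (*Gzmb*), 0.45 (*Nkg7*), -0.28 (*Klrd1*) and -0.03 (*Klrk1*); for the other 5 both control means lie at or under the floor and no difference is given. These values share the colitis means with the responses given above. The deposited tables give no spread between mice, so these differences between genotypes were not set against error, and whether the response of a gene to colitis differs between genotypes was not tested.

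Levels of different genes were compared per kilobase of exon. In WT colitis the order was *Gzmb* (3.45 log2 RPM per kb), *Gzma* (2.83), *Nkg7* (2.44), *Klrd1* (1.499), *Gzmc* (0.33), *Klrk1* (-0.40), *Prf1* (-0.62), *Ncr1* (-1.11) and *Gzmk* (-1.53). In KO colitis the first 4 places were the same, with *Gzmb* at 2.69 and *Gzma* at 2.58, close to each other. Then came *Klrk1* (-0.10), *Gzmc* (-0.66), *Prf1* (-0.97), *Gzmk* (-1.05) and *Ncr1* (-1.16). In control *Klrd1* was first in both genotypes, at -0.11 in WT and -0.39 in KO, ahead of *Nkg7* at -1.31 and -0.86. A receptor thus led in control, and granzymes led in colitis. Exons of *Klrk1* span 7183 bases over all transcripts but 3259 in the longest one, which places it higher, at 0.74 in WT colitis. No spread is given, so which neighbours in these orders differ is not known.

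Other genes were counted from lists of known families linked to cytotoxic lymphocytes, and not every listed gene is particular to these cells. Only genes that had passed a test could be found, and the counts stand beside 36.6% of all genes in the tables that rose in WT and 44.8% in KO. No listed gene passed a test of KO against WT. None of 6 other granzymes was in a table and these were not analysed here. Of 19 killer cell lectin-like receptors, 8 were found, with 6 that rose in WT and 7 in KO and a median difference of 2.24 and 2.33. In control 6 of the 8 were at or under the floor in either genotype, as were 2 in WT colitis, and with such means raised to 3 reads the medians were 1.18 and 1.45. They include *Klrc1*, which encodes the NKG2A chain that pairs with CD94, at least 6.23-fold (WT) and 5.03-fold (KO) higher, and *Klrb1c*, which encodes NK1.1, at least 4.22-fold and 4.45-fold. *Klra2*, an inhibitory Ly49 receptor, rose 7.21-fold in WT and 6.10-fold in KO, and which cells carried it is not known from whole colon. Reads of near-identical *Klra* and *Klrc* genes can be split between copies, so these values are uncertain. Of the ligands for Klrk1 and Klrd1, 3 of 9 were found. *H2-T23*, the Qa-1 molecule that binds CD94 with NKG2A, rose 1.48-fold in WT and 1.48-fold in KO. *H60c*, an NKG2D ligand, fell by 0.68 on the log2 scale in WT, and *Ulbp1*, another one, fell by 0.89 in KO.

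Of 17 genes of the T cell receptor complex and its coreceptors 16 were found, with 14 that rose in WT and 16 in KO, none that fell, and a median difference of 2.33 in WT and 2.47 in KO. The chains of CD8, the coreceptor of cytotoxic T cells, were high among them: *Cd8a* rose 8.76-fold in WT and 9.95-fold in KO, and *Cd8b1* rose 9.97-fold and 7.46-fold. *Cd3d* rose 9.33-fold and 7.73-fold, and *Trbc2* rose 9.51-fold and 5.90-fold. In colitis 12 of the 16 had a higher mean in KO than in WT, with a median of 0.11, where 2449 of all 5171 genes did. Whether this differs from the granule proteins was not tested. Of 10 surface genes of intraepithelial and activated lymphocytes 8 were found, with 6 that rose in WT and 8 in KO. The KO mean was higher for 6 of the 8 in colitis, beside the same 2449 of 5171 genes, with a median of 0.23. *Cd7*, a marker of T and natural killer cells, rose 5.95-fold in WT and 6.72-fold in KO, and *Trdc*, the constant region of the gamma delta receptor, rose 4.16-fold and 2.64-fold.

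**Figure D3:**
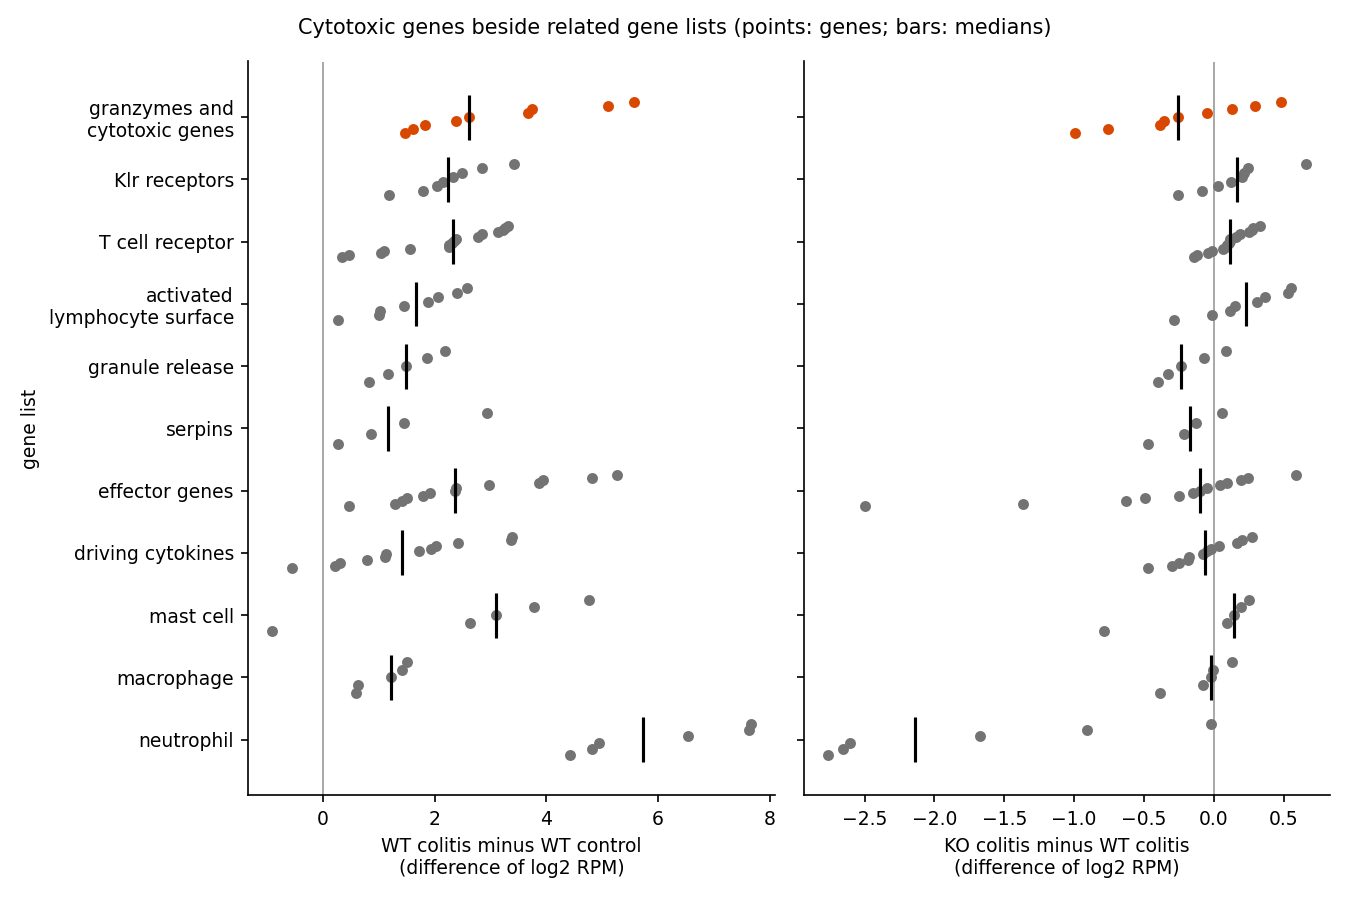
Each point is a gene, grouped by list on the vertical axis, and each bar the median of a list; the left panel gives WT colitis minus WT control and the right panel KO colitis minus WT colitis, both as differences of log2 RPM. In the right panel the medians are -0.25 for the 9 cytotoxic genes, 0.11 for the T cell receptor list and -2.14 for the neutrophil markers. No gene drawn passed a test of KO against WT.

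Of 10 genes that load and release the granules 5 were found, and these 5 rose in WT and in KO. *Srgn*, the proteoglycan that packs granzymes, rose 3.61-fold in WT and 2.84-fold in KO, and *Ctsw*, a protease of killer cells, rose 4.56-fold and 3.42-fold. *Stx11*, a SNARE protein of granule release, rose 2.81-fold in WT and 1.79-fold in KO. All 5 had a smaller difference in KO, and 4 of the 5 a lower KO mean in colitis, with a median of -0.24. Of all 5171 genes, 2723 had a smaller difference in KO and 2722 a lower KO mean in colitis. *Srgn* and *Ctsc*, which encodes the protease that activates granzymes, are also expressed in myeloid cells. Of 6 serpins that inhibit granzymes or related proteases 4 were found, with 3 that rose in WT and 4 in KO. *Serpinb9*, the inhibitor of granzyme B, rose 1.82-fold in WT and 1.66-fold in KO, and *Serpina3g* rose 7.66-fold and 6.27-fold.

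Of 15 effector cytokines, death ligands and transcription factors 13 were found, with 9 that rose in WT and 13 in KO. *Ifng*, the main cytokine of cytotoxic lymphocytes, had means of -3.49 (WT) and -3.44 (KO) log2 RPM in controls, against 1.33 (WT) and -0.04 (KO) in colitis. Its rise was at least 8.49-fold for WT and 3.17-fold for KO mice. *Ccl4*, a chemokine of activated lymphocytes and macrophages, rose at least 11.9-fold and at least 2.04-fold, with a KO minus WT difference of -2.50 in colitis. *Ccl5*, a T cell chemokine, rose 7.88-fold and 7.93-fold, and *Tbx21*, which encodes T-bet, rose 5.21-fold and 6.12-fold. Over the 13 genes the KO mean in colitis was lower for 8, with a median of -0.10, where it was lower for 2722 of all 5171 genes. None of the 13, *Ifng* and *Ccl4* included, passed a test of KO against WT.

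Of 16 cytokines and receptors that drive cytotoxic lymphocytes 12 were found, with 9 that rose in WT and 10 in KO. *Il12b*, a chain of IL-12 and IL-23, rose by factors of at least 6.41 (WT) and 7.48 (KO), and *Il2rb*, shared by the IL-2 and IL-15 receptors, rose 4.07-fold and 4.04-fold. *Il15*, named after its values were seen, was the one gene of the list that fell, by 0.59 on the log2 scale in KO. Of the CXCR3 axis, *Cxcl9*, a chemokine induced by interferon gamma that draws CXCR3-bearing lymphocytes, rose 42.5-fold in WT and 24.7-fold in KO, and *Cxcl10* rose 17.5-fold and 5.78-fold. The receptor *Cxcr3* rose 3.11-fold and 4.41-fold.

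Markers of other leukocytes moved in the same comparison. The 3 pan leukocyte genes rose in both genotypes, by a median of 1.34 in WT and 1.48 in KO, with a KO minus WT median of 0.08 in colitis. The 6 neutrophil markers were higher by a median of 5.73 in WT and 4.87 in KO. With means at or under 3 reads raised to 3 reads, these medians were 4.64 and 3.54. In colitis all 6 had a lower KO mean, with a median of -2.14, where 2722 of all 5171 genes had a lower one. None of the 6 passed a test of KO against WT. For *Ltf* the difference was only -0.02, and it became 0.03 when each group was centred on the median of all genes. *S100a8* and *S100a9*, the abundant neutrophil calcium-binding pair, had KO minus WT differences of -2.66 and -2.77. The summed level of the 6 markers was 1.32 (WT) and 1.54 (KO) log2 RPM in controls, and 7.47 (WT) and 5.48 (KO) in colitis, with 4 of 6 markers at or under the floor in WT control and 5 in KO control. The 5 macrophage markers found had a KO minus WT median of -0.02 in colitis. Of 6 markers each, 1 was found for epithelium, where *Slc26a3* fell by 1.31 (WT) and 0.63 (KO), and 1 for B cells, *Cd79b*, which rose in KO, with differences of 0.23 in WT and 0.93 in KO. The part of these cell types in the values of the granule proteins was not tested.

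Mast cell proteases share the chromosomal cluster of *Gzmb* and *Gzmc*. Within 1 Mb of *Gzmb* lie 22 genes of the tables, of which 7 were higher in WT colitis by at least 1, where 18.4% of all genes were. *Gzmc*, 1 of the 9 genes and of these 7, starts 27.6 kb away, *Mcpt4* 200.0 kb, *Mcpt2* 220.1 kb and *Mcpt1* 244.3 kb. *Mcpt2*, a mucosal mast cell protease, rose at least 24.5-fold (WT) and 27.0-fold (KO), and *Mcpt1* rose 13.8-fold and 10.3-fold. Neither was lower in KO than in WT colitis, with differences of 0.19 and 0.14. *Mcpt4*, of connective tissue mast cells, rose at least 4.395-fold in WT mice. In KO mice it was at least 2.46-fold above control, and KO minus WT was -0.79 in colitis. On the other side, *Atp12a*, a proton pump gene 102.8 kb away, fell by 2.09 in WT, with a difference of -0.28 in KO. Not all mast cell genes rose: *Kit* fell by 0.91 (WT) and 0.63 (KO), though it is also a gene of pacemaker cells in the gut wall.

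Around *Klrk1*, 21 genes of the tables lie within 1 Mb, 11 of them higher in WT colitis by at least 1, beside the same 18.4%. Among the 11 are *Klrd1* and killer cell lectin-like receptors already counted above. With means at or under 3 reads raised to 3 reads, *Klra3*, *Klrc2* and *Klra17* no longer reached a difference of 1. *Klrd1* starts 32.1 kb from *Klrk1*, *Klrc2* 36.8 kb and *Klrc1* 55.1 kb. *Gabarapl1*, an autophagy gene 90.7 kb from *Klrk1*, fell by 0.66 (WT) and 0.63 (KO). *Olr1*, a lectin-like receptor for oxidised lipoprotein 116.7 kb away, rose by 4.05 in WT, with a difference of 1.92 in KO. The cluster thus held genes that fell beside genes that rose.

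**Figure D4:**
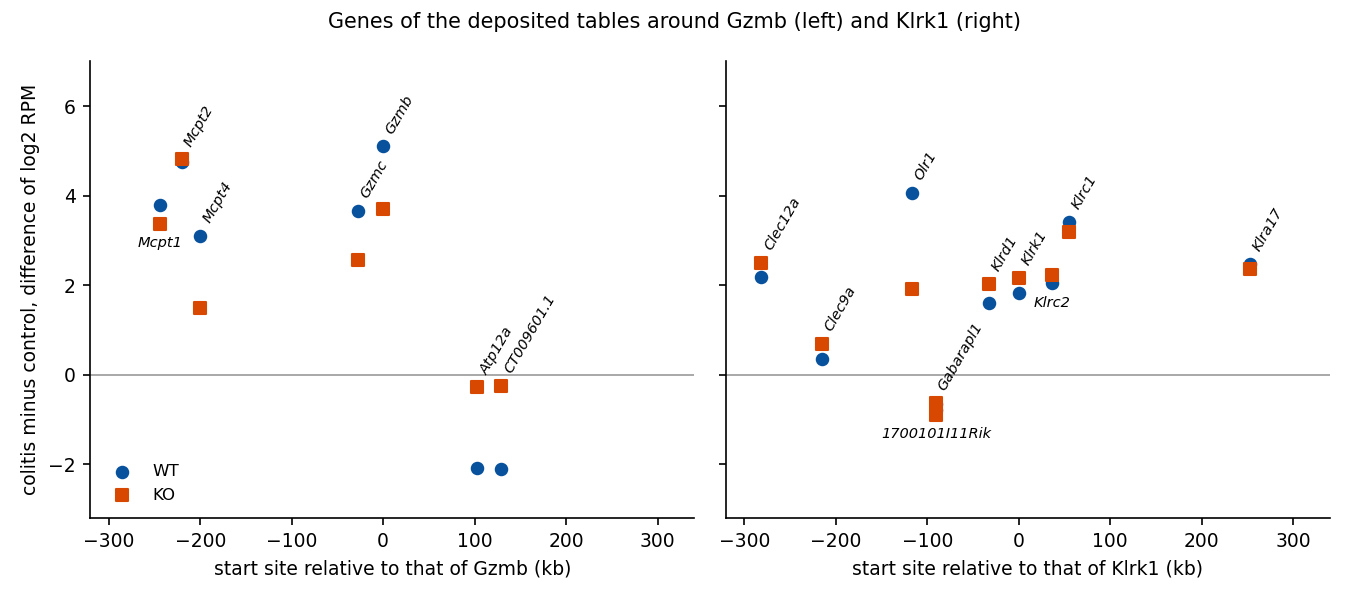
Colitis minus control (difference of log2 RPM, vertical axis) in WT (circles) and KO (squares) against the distance of each gene's start from that of *Gzmb* (left) or *Klrk1* (right), along the chromosome in kb; only genes of the deposited tables are drawn, and control means under the floor are used as given. *Mcpt* genes and *Gzmc* lie above 0 on 1 side of *Gzmb*, and *Atp12a* lies below 0 on the other.

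The genes whose profile over the 4 group means was most like that of a given gene were found by the Euclidean distance after centring each gene, among 5162 genes. Closest to *Gzmb* were *Spp1* (distance 0.19), *Sirpb1c* (0.22), *Marco* (0.24), *Il1b* (0.44) and *Gml* (0.45). Both control means of *Spp1*, *Sirpb1c*, *Marco* and *Gml* lie under the floor, so their distances rest on few reads in control. *Spp1*, *Sirpb1c*, *Marco* and *Il1b* are known from myeloid cells, and their KO minus WT differences in colitis were -0.85, -0.47, -1.03 and -1.22. Closest to *Gzma* were *Ly6i* (0.41), *Cxcl9* (0.42), *Ido1* (0.46), *Ltf* (0.58) and *Mcpt2* (0.63). With differences from WT control in place of centred means, 3 of these 5 and 4 of the 5 for *Gzmb* were shared, and the control means of *Gzma* that enter the distance lie under the floor. *Cxcl9* and *Ido1* are known as genes induced by interferon gamma. Closest to the median profile of the 9 genes were *Saxo1* (0.17), *Dmgdh* (0.22), *Tgtp1* (0.26), *Mcpt1* (0.30) and *Il12b* (0.31). Both control means of *Ly6i*, *Ltf*, *Mcpt2*, *Saxo1*, *Dmgdh* and *Il12b* also lie under the floor. Such a distance over 4 means describes likeness only.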

How the data were processed

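Whole colon RNA was sequenced in 16 libraries of 4 groups. Per the methods of the study, the authors aligned reads to the mouse build GRCm38 using HISAT2 2.1.0, counted reads with a unique position over exons in SeqMonk, left out reads on ribosomal RNA because some samples were contaminated, and ran DESeq2 on raw counts. Each of the 4 deposited tables holds the genes under an adjusted p of 0.05 in 1 comparison. Their values are log2 RPM, which the authors averaged over the libraries of a group, and these means were used. The deposited p-value column holds the authors' adjusted p and was not used beyond table membership. Whether counting used strand is not given in the sources used here.

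The design had foreseen no test on these means and none was run. Differences were taken between the authors' means, on a log2 scale. Library depth was recovered from the steps of whole reads among low means, with 100% of the low means in each group on such steps. The next best reading put 54.5% (WT) and 67.3% (KO) on steps in control, and 93.3% (WT) and 95.0% (KO) in colitis, so read numbers are less firmly fixed in colitis. A library without a read entered as 0.9 read. Folds against a mean at or under 3 reads per library are lower bounds against 3 reads, for counting error only. Exon lengths came from GENCODE M21 and promoters from RefSeq. Python (version 3.11.15) and pandas (version 2.3.3) were used, and the recovery of depth was tested on simulated data.

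The 9 genes and the 16 other lists were chosen with earlier results of these data known. Counts for the list of CXCR3 axis and homing genes are not reported here. From each other list, at most 6 genes were named, those with the largest absolute colitis change in WT. For profiles, the 5 closest genes were named, and for neighbours, genes within 1 Mb. Alternatives were raising low means to 3 reads, centring on the median of all genes, keeping genes above 3 reads in all groups, a mean in place of a median, other thresholds, the longest transcript, and, for profiles, differences from WT control. A median was called moved past 0.2 on the log2 scale, and a count past 1.5 times. Differences between mice were not examined, since the deposited group means were used alone.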

Additional observations from a re-analysis of the deposited data

How the results depend on the processing

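Over 19 values and 43 alternatives, 33 stayed within the tolerance, 9 moved and 1 changed sign. With means at or under 3 reads raised to 3 reads, the median colitis difference over the 9 genes was 1.93 in WT and 2.098 in KO, and the median difference between the responses was -0.30 instead of -0.51. Keeping only the 4 genes above 3 reads in all groups gave -0.25 for the latter. As a mean over the 9 genes, the colitis difference was 3.11 in WT and 2.77 in KO. Genes lower in KO colitis numbered 5 of 9 at a threshold of 0.25 in place of 0.5. The share of all genes at 0.25 was not counted, so that number has nothing to be set beside. By the longest transcript, the *Klrk1* level in WT colitis was 0.74 log2 RPM per kb instead of -0.40. The difference between responses of *Ncr1* was 0.67, and -0.10 with low means raised. No paired analysis was possible because the deposited columns used here are group means and carry no replicate, and no library was left out for the same reason. Of the 5 genes closest to *Gzma*, 3 were shared with differences from WT control. Depth limits the control values most, with 5 of 9 genes at or under 3 reads in either genotype.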

Other observations

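Other loci of the 9 genes also held genes of the tables. Within 1 Mb of *Gzma* lie 4 such genes. By the authors' means as given, *Gzmk* alone was higher in WT colitis by at least 1, and by 0.70 with control raised to 3 reads. *Gpx8*, a peroxidase of the secretory pathway, rose by 0.50 in WT. Around *Ncr1*, beside the leukocyte receptor complex, 8 of 19 genes were higher by at least 1, beside 18.4% of all genes. The farthest moved were *Il11*, a cytokine of stromal cells, with 6.74 in WT and 3.38 in KO, and *Tarm1*, a myeloid receptor, with 4.77 and 2.88, though the WT control means of both lie under the floor, as does the KO control mean of *Tarm1*. *Lair1*, an inhibitory collagen receptor of leukocytes, rose by 1.78 in WT and 1.45 in KO, and *Lilra5*, an activating myeloid receptor, rose by 1.10 in WT. *Cd69*, an early activation marker of lymphocytes 348.4 kb from *Klrk1*, rose by 1.73 in KO, with a difference of 0.81 in WT.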
